A study of Rattus norvegicus with 16 samples.

Results

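The vascular endothelial growth factor (VEGF) genes described here are 4 ligands, Vegfa, Vegfb, Vegfc and Pgf, and 5 receptors and co-receptors, Flt1, Kdr, Flt4, Nrp1 and Nrp2. Members were the genes of this list with a probe set whose platform annotation gives that gene's symbol alone. Of the 9 listed genes, 8 were measured, each by 1 probe set, out of 14324 genes in all. Kdr, the main signalling receptor of VEGF-A, had no probe set under that name in the annotation used and was not analysed here.

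VEGF ligands are secreted proteins that bind receptor tyrosine kinases on endothelial cells and guide the growth, survival and permeability of blood and lymphatic vessels. VEGF-A acts through VEGFR2, the product of Kdr, while VEGFR1, the product of Flt1, binds VEGF-A tightly, signals weakly and can act as a decoy. In the newborn rodent retina, glia and neurons lying ahead of the growing vessels make VEGF-A, and its transcription rises in low oxygen through the hypoxia-inducible factors (HIFs). High oxygen lowers it and halts vessel growth, which is why this pathway is followed in oxygen-induced retinopathy, a model of retinopathy of prematurity.

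Retinal RNA came from newborn rats of the Fischer (F344) strain, known as resistant to the retinopathy, and of the susceptible Sprague Dawley (SD) strain. Exposed rats lived from within 12 h of birth in cyclic hyperoxia, 24 h at 80% oxygen in turn with 24 h at 21% oxygen, and controls of the same age in room air. The rats were sampled on post-natal day 5 or 6. The 8 groups were thus F344 and SD under cyclic hyperoxia or in room air on day 5, and the same on day 6, and the labels name no genetic change or drug in any of them. Each group had 2 arrays, each hybridised with pooled RNA. The design text speaks of 3 rats from 2 litters for the pools, and the labels leave unsaid which of the oxygen levels came just before sampling. The labels call the 2 arrays of a group biological replicates, but nothing ties a pool to a litter or batch. A p-value here thus reflects just the spread between pools, which may in part be technical.

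The values are log2 expression values on an Affymetrix gene array, and the number of arrays limits their precision. The tissue label was checked against cell type markers. All 6 measured rod genes and all 6 measured ganglion cell genes had mean values above 5.45, the lowest array median. Of the lens genes 0 of 3 did, and of the pigment epithelium and choroid genes 1 of 6. Of the endothelial genes 1 of 21 did, and of the astrocyte genes 1 of 5. A low value therefore does not tell absent tissue from sparse cells. Single arrays varied more than these means: Crygd, a lens gene, ranged from 4.15 to 6.62. Ttr, the pigment epithelium and choroid gene above the lowest array median, had a mean of 8.98. Carry-over of such tissue on single arrays was not tested. Replicates correlated with r between 0.987 and 0.996 over all genes. The F344 pair under cyclic hyperoxia on day 6 stood apart, with the lowest r and 70 genes over 2-fold apart against 0 to 34 in the other pairs. Some of the results that touch this pair are also given without its arrays.

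The sequences upstream of the genes are shown for the gene with the largest oxygen effect in the family, Vegfa, and for members whose window holds a HIF core. The cores searched were ACGTG and GCGTG on both strands, in RefSeq promoter windows of the rat assembly GRCr8 from 250 bases before to 50 bases after a transcript start. They were found in 6 of the 9 genes, and 41.6% of all 33469 such windows hold either core. Every match in the family was GCGTG, which 29.7% of all windows hold, and 0 members held ACGTG, which 19.3% of all windows hold. The windows of Vegfa, Vegfc and Flt4 held neither core, which says only that these letters are not in these windows. The 250 bases before the first listed Vegfa start, chr9:22452604-22452853 on the plus strand, read 5′ to 3′ as follows, with no match to put in capitals.
Vegfa: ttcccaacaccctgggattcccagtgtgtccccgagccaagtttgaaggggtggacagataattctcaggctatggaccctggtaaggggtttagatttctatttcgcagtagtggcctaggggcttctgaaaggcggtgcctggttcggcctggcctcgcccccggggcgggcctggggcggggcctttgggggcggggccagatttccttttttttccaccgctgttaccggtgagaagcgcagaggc

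In the other windows shown, the capitals mark the core, which appears as CACGC where the match lies on the opposite strand. Each run is 30 bases on the gene's own strand. Flt1 is at chr12:12333191-12333220 (plus), Nrp1 at chr19:73256387-73256416 (plus), Nrp2 at chr9:71617048-71617077 (plus), Vegfb at chr1:213607203-213607232 (minus) and Pgf at chr6:110557884-110557913 (minus). The cores begin 227 bases before the start in Flt1, 158 in Nrp1, 194 in Nrp2, 68 in Vegfb and 154 in Pgf. Nrp1 and Nrp2 each held a further match just after the start, which is not shown, and neither are the matches of the unmeasured Kdr.
Flt1: ctagcgccaccgCACGCgcgctccggcccc
Nrp1: gggaggtagggaCACGCgctccctgtggca
Nrp2: gtacctctgcccGCGTGtgtcctgggtgcc
Vegfb: cgggtggggagcGCGTGtttaggtcacatg
Pgf: ccctgcgggggtCACGCgcactcaggtctc

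On day 5, Vegfa fell under cyclic hyperoxia in both strains, and Flt1 fell in the mean of the strains. On day 6 none of the 8 members was called between cyclic hyperoxia and room air. The threshold for a call was an adjusted p of 0.05 from limma with Benjamini-Hochberg adjustment over all 14324 genes of a comparison. The other ligands, Flt4 and both neuropilins passed the test in no comparison reported here.

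Vegfa, the ligand that drives retinal vessel growth, was at 7.92 and 8.21 on the SD arrays under cyclic hyperoxia on day 5. The SD room air arrays of that day were at 9.14 and 9.01. In F344 the day 5 values were 8.20 and 8.27 under cyclic hyperoxia and 8.94 and 9.18 in room air. All 4 hyperoxia arrays of day 5, at 7.92 to 8.27, lay below all other 12 arrays, at 8.93 to 9.38. The fall on the log2 scale was -1.01 in SD (95% confidence interval -1.29 to -0.72, adjusted p = 0.00501 from limma), a 2.01-fold lower level. In F344 it was -0.83 (-1.11 to -0.54, adjusted p = 0.0210 from limma), or 1.77-fold lower. The mean of both strains was -0.92 (-1.12 to -0.72, adjusted p = 0.00013 from limma).

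These calls stand against a small background. In SD on day 5, 0.0628% of all genes were called, in F344 0.126% and in the mean of both strains 0.209%, with 0 genes called higher in each. Of the members, 1, 1 and 2 were called in these comparisons, all lower. The median change of the 8 members was -0.22 in SD and -0.11 in F344, beside a median over all genes of 0.01 in each. The single-strain calls of Vegfa were not stable when 1 array was left out. Without replicate 1 of SD under cyclic hyperoxia or in room air the SD change was -0.87 and -0.94 and was not called. The F344 call was lost without either hyperoxia array or without room air replicate 2, at -0.71 to -0.86. A group left with 1 array has no spread of its own, so these losses cannot show that a call rested on that array. The F344 call was also lost in a fit on the arrays of day 5 alone (-0.83, adjusted p = 0.0719 from limma). The call in the mean of the strains held whichever 1 array was left out, with adjusted p at most 0.00206.

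On day 6 the Vegfa values under cyclic hyperoxia were 9.19 and 9.29 in SD and 9.33 and 9.37 in F344. Room air values were 9.08 and 8.93 in SD and 9.10 and 9.38 in F344. In SD the hyperoxia pair lay above the room air pair, while in F344 the pairs overlapped. The change was 0.23 in SD (-0.05 to 0.52, adjusted p = 0.372 from limma) and 0.11 in F344 (-0.17 to 0.39, adjusted p = 0.711 from limma). The called share of all genes on day 6 was 2.79% in SD, 1.19% in F344 and 6.74% in the mean of the strains, and 0 members were among them. With all arrays 400 genes were called in SD and 170 in F344. These counts were not stable when 1 array of day 6 was left out. Such a fit leaves 1 array in a group, so it cannot show that the calls rested on that array.

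The Vegfa oxygen effect differed between the days when that difference was itself tested. It was higher on day 6 than on day 5 by 1.24 in SD (0.84 to 1.64, adjusted p = 0.0116 from limma) and by 0.94 in F344 (0.54 to 1.34, adjusted p = 0.0350 from limma). Over both strains the difference was 1.09 (0.81 to 1.37, adjusted p = 0.000843 from limma). These tests use the day 5 arrays again and are not independent of the day 5 result. Each oxygen level lasted 24 h, so rats sampled on day 5 and day 6 may have been in different phases of the cycle. For any difference between days under hyperoxia, age and oxygen phase cannot be told apart. The share of all genes called was 0.112% in SD, 1.02% in F344 (0.272% called higher) and 0.182% over both strains, and Vegfa was the only member called in each. The difference over both strains held in every fit that left out 1 array. The SD difference was lost, with adjusted p of 0.0661 to 0.114, when any 1 of 5 SD arrays was left out: replicate 1 of either day 5 group, either hyperoxia array of day 6 or room air replicate 2 of day 6. The F344 difference was lost in 8 such fits, with adjusted p of 0.0517 to 0.159: on leaving out any 1 F344 array of day 5, either F344 room air array of day 6 or either SD hyperoxia array of day 6. It was also lost with array weights (adjusted p = 0.104 from limma) and with every probe set tested on its own (adjusted p = 0.0629 from limma).

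Among hyperoxia arrays alone, Vegfa rose from day 5 to day 6 by 1.15 (0.95 to 1.35, adjusted p = 5.16e-06 from limma), a 2.21-fold higher level. Flt1 was the other member called in this comparison, in which 4.8% of all genes were called and 2.1% of all genes were called higher. Among room air arrays the Vegfa difference between days was 0.06 (adjusted p = 0.85 from limma), with 3% of all genes called and 0 members. The order of the 8 Vegfa group means therefore put SD and F344 under hyperoxia on day 5 lowest, at 8.07 ± 0.20 and 8.23 ± 0.05 (SD, n = 2 arrays). The other 6 group means lay between 9.01 and 9.35, in the order SD room air of day 6, F344 and SD room air of day 5, F344 room air with SD hyperoxia of day 6, and F344 hyperoxia of day 6. Neighbours among these 6 overlapped, except that SD hyperoxia of day 6, at 9.19 and 9.29, lay above SD room air of day 5, at 9.14 and 9.01, and below F344 hyperoxia of day 6, at 9.33 and 9.37.

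**Figure D1:**
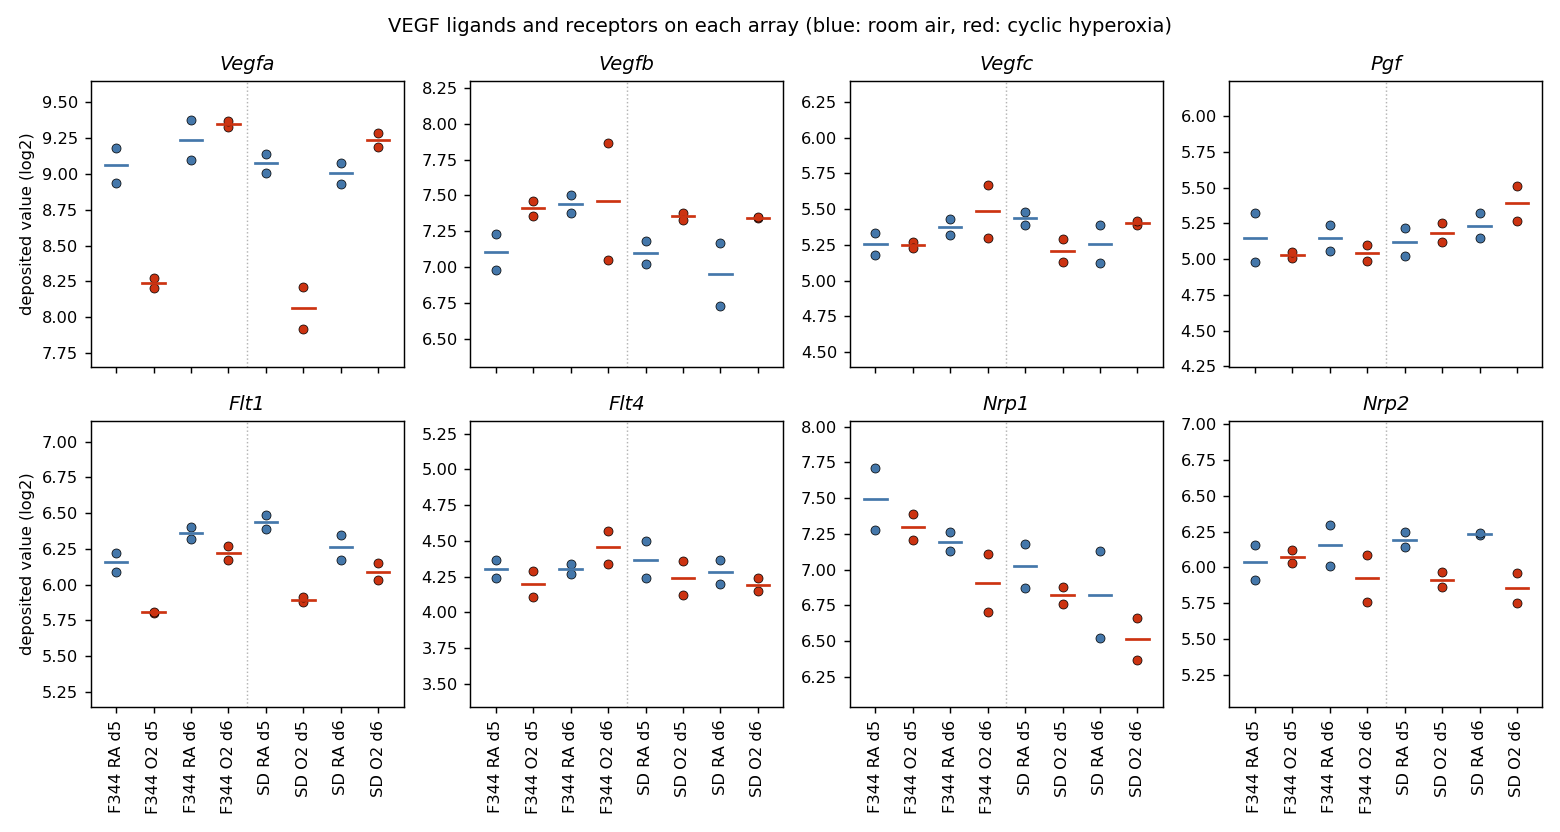
Deposited log2 values of the 8 measured VEGF genes on each array, 1 panel per gene, with groups of 2 arrays on the horizontal axis, room air in blue and cyclic hyperoxia in red. Each panel spans 2 log2 units around its own gene, and the Vegfa hyperoxia arrays of day 5 lie at 7.92 to 8.27, below all others.

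Vegfb, a ligand of VEGFR1 linked mainly to cell survival and lipid handling, showed a pattern opposite in sign that passed no test. In SD the 4 hyperoxia arrays were at 7.38 and 7.33 on day 5 and 7.34 and 7.35 on day 6. The 4 SD room air arrays were at 7.02 and 7.18, then 6.73 and 7.17, so the exposures did not overlap in this strain. The change in SD was 0.26 on day 5 (adjusted p = 0.732 from limma) and 0.40 on day 6 (-0.03 to 0.83, adjusted p = 0.314 from limma). In F344 on day 5 the hyperoxia arrays were 7.46 and 7.36 and the room air arrays 7.23 and 6.98, also without overlap, for a change of 0.30 (adjusted p = 0.739 from limma). The F344 day 6 hyperoxia arrays were 7.05 and 7.87, either side of the room air arrays at 7.50 and 7.38, and the change was 0.02. The day 6 mean of the strains was 0.21 with all arrays (adjusted p = 0.406 from limma). This mean was 0.42 without replicate 1 of that hyperoxia pair and 0.0034 without replicate 2.

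Vegfc, the lymphatic growth factor, and Pgf, a placental ligand of VEGFR1, lay below the typical level of the arrays. Vegfc lay between 5.12 and 5.67, with 2 of 16 arrays above the lowest array median, and Pgf between 4.98 and 5.51, with 1 array above it. The Vegfc change on day 5 was -0.22 in SD (adjusted p = 0.65 from limma) and -0.01 in F344 (adjusted p = 0.997 from limma). Pgf under hyperoxia was at 5.12 to 5.51 on the 4 SD arrays and 4.99 to 5.10 on the 4 F344 arrays, without overlap. That strain difference was 0.25 (0.04 to 0.46) and did not pass (adjusted p = 0.13 from limma).

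Flt1, whose product is the high-affinity and partly decoy receptor VEGFR1, fell with Vegfa on day 5. The hyperoxia values were 5.88 and 5.91 in SD and 5.80 and 5.81 in F344, and the room air values were 6.39 and 6.49 in SD and 6.22 and 6.09 in F344. As with Vegfa, all 4 hyperoxia arrays of day 5 lay below the other 12, which ranged from 6.03 to 6.49. The change was -0.45 in the mean of the strains (-0.61 to -0.29, adjusted p = 0.0194 from limma), or 1.37-fold lower. In the single strains it was -0.55 in SD (adjusted p = 0.171 from limma) and -0.35 in F344 (adjusted p = 0.357 from limma). The call was lost when any 1 of 7 of the 8 day 5 arrays was left out, with adjusted p up to 0.137; it held without F344 room air replicate 2. Over these fits the change itself stayed between -0.48 and -0.42.

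On day 6 Flt1 was at 6.03 and 6.15 in SD and 6.27 and 6.17 in F344 under cyclic hyperoxia. Room air arrays were at 6.17 and 6.35 in SD and 6.32 and 6.4 in F344. Hyperoxia arrays lay below room air arrays within each strain, but the difference of -0.16 in the mean of the strains did not pass (-0.32 to 0.01, adjusted p = 0.234 from limma). Under hyperoxia Flt1 rose from day 5 to day 6 by 0.31 (0.14 to 0.47, adjusted p = 0.0314 from limma), a call that was lost when any 1 hyperoxia array of day 5 or either SD hyperoxia array of day 6 was left out, with adjusted p up to 0.111. The oxygen effect on Flt1 was not shown to differ between days: that difference was 0.29 over both strains (0.06 to 0.53, adjusted p = 0.44 from limma).

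Flt1 is largely an endothelial transcript, and endothelial markers were also lower under hyperoxia. On day 5 the mean of 21 measured endothelial markers was 4.52 to 4.58 on the 4 hyperoxia arrays and 4.75 to 5.06 on the 4 room air arrays. All 21 were lower under hyperoxia in the mean of the strains, with a median change of -0.22, and 5 were called lower, where 0.209% of all genes were called: Tek, Adgrl4, Adgrf5, Slco1c1 and Slc38a5. On day 6 the marker means were 4.68 to 4.91 against 4.95 to 5.07 in room air, 17 of 21 markers were lower with a median of -0.19, beside -0.01 over all genes. Of these, 5 were called lower, where 6.74% of all genes were called: Tie1, Tek, Emcn, Adgrl4 and Slc38a5. In the single strains 4 markers were called lower in SD and 1 in F344. The shares of all genes called there were 2.79% and 1.19%. Only 1 of the 21, Ramp2, had a mean above the lowest array median, and the rest lay below it. Markers of pericytes and smooth muscle were 4.77 to 4.88 under hyperoxia and 4.98 to 5.32 in room air on day 5, with 8 of 9 lower and 0 called. The part of these cells in the Flt1 result was not tested, and in whole retina fewer cells of a type and less RNA per cell cannot be told apart.

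**Figure D2:**
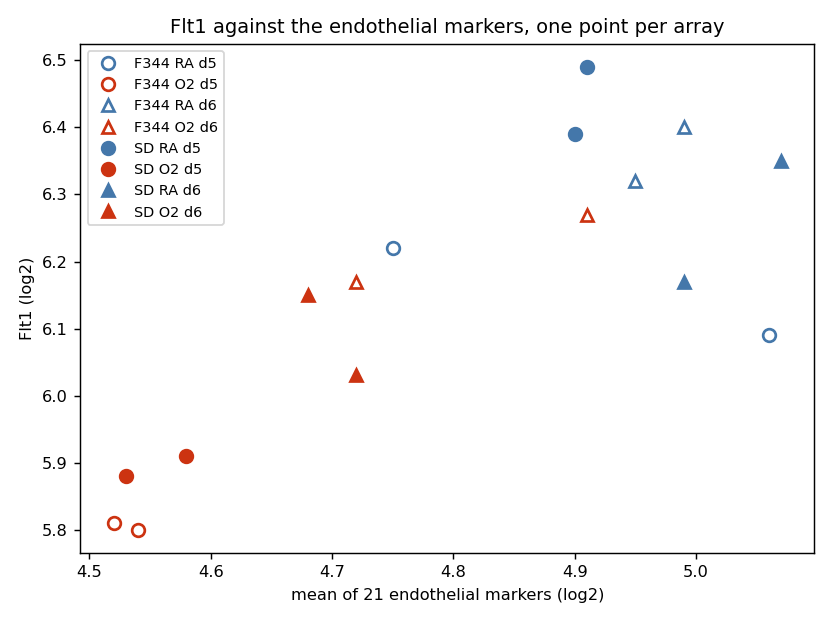
Flt1 log2 value against the mean log2 value of 21 endothelial markers, 1 point per array, coloured by exposure and shaped by day, with filled symbols for SD and open symbols for F344. The 4 hyperoxia arrays of day 5 are lowest on both axes, at 5.80 to 5.91 for Flt1 and 4.52 to 4.58 for the markers.

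Flt4, which encodes VEGFR3, the receptor of VEGF-C on lymphatic and sprouting endothelium, was between 4.11 and 4.57. It was below the lowest array median on all 16 arrays. Its oxygen effect was -0.13 in SD and -0.10 in F344 on day 5, and no comparison passed the test.

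Nrp1, a co-receptor that binds VEGF-A and class 3 semaphorins and is also made by neurons, passed no test by strain or by exposure. The 8 SD arrays ranged from 6.37 to 7.18 with a median of 6.81, and the 8 F344 arrays from 6.70 to 7.71 with a median of 7.23, so the strains overlapped. F344 arrays were at 7.21 and 7.39 under hyperoxia and 7.28 and 7.71 in room air on day 5, then at 7.11 and 6.70 and at 7.13 and 7.26 on day 6. SD arrays were at 6.76 and 6.88 under hyperoxia and 7.18 and 6.87 in room air on day 5, then at 6.37 and 6.66 and at 7.13 and 6.52 on day 6. The lowest values of the gene were thus SD hyperoxia and room air arrays of day 6, and the highest an F344 room air array of day 5. The SD minus F344 difference was -0.42 in room air (-0.72 to -0.12, adjusted p = 0.0796 from limma) and -0.44 under hyperoxia (-0.74 to -0.13, adjusted p = 0.0689 from limma). Neither passed, although 9.35% and 8.96% of all genes did in these comparisons. The room air difference passed without F344 day 5 replicate 1 (-0.53, adjusted p = 0.0397 from limma) or without SD day 6 replicate 1 (-0.58, adjusted p = 0.0194 from limma). The hyperoxia difference passed without the second F344 hyperoxia array of day 6, at -0.54 (adjusted p = 0.0365 from limma), and without either SD room air array of day 6, at -0.44 (adjusted p = 0.0351 from limma). The oxygen effect on Nrp1 was -0.20 on day 5 and -0.30 on day 6 in the mean of the strains (adjusted p = 0.625 and 0.217 from limma).

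Nrp2, the neuropilin that pairs with VEGFR3 and semaphorin receptors, was lower in SD under cyclic hyperoxia without passing the test. The 4 SD hyperoxia arrays were at 5.97 and 5.86 on day 5 and 5.75 and 5.96 on day 6. The 4 SD room air arrays were at 6.14 and 6.25, then 6.23 and 6.24, above all hyperoxia arrays of the strain. The change in SD was -0.28 on day 5 (adjusted p = 0.574 from limma) and -0.38 on day 6 (-0.68 to -0.08, adjusted p = 0.149 from limma). F344 arrays were at 6.03 and 6.12 under hyperoxia against 5.91 and 6.16 in room air on day 5, and at 6.09 and 5.76 against 6.01 and 6.30 on day 6. Exposures overlapped in F344 on both days, and the changes were 0.04 and -0.23. The day 6 mean of the strains was -0.31 (-0.52 to -0.10, adjusted p = 0.0727 from limma). Without replicate 1 of F344 hyperoxia it was -0.39, and without replicate 2 it was -0.22.

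**Figure D3:**
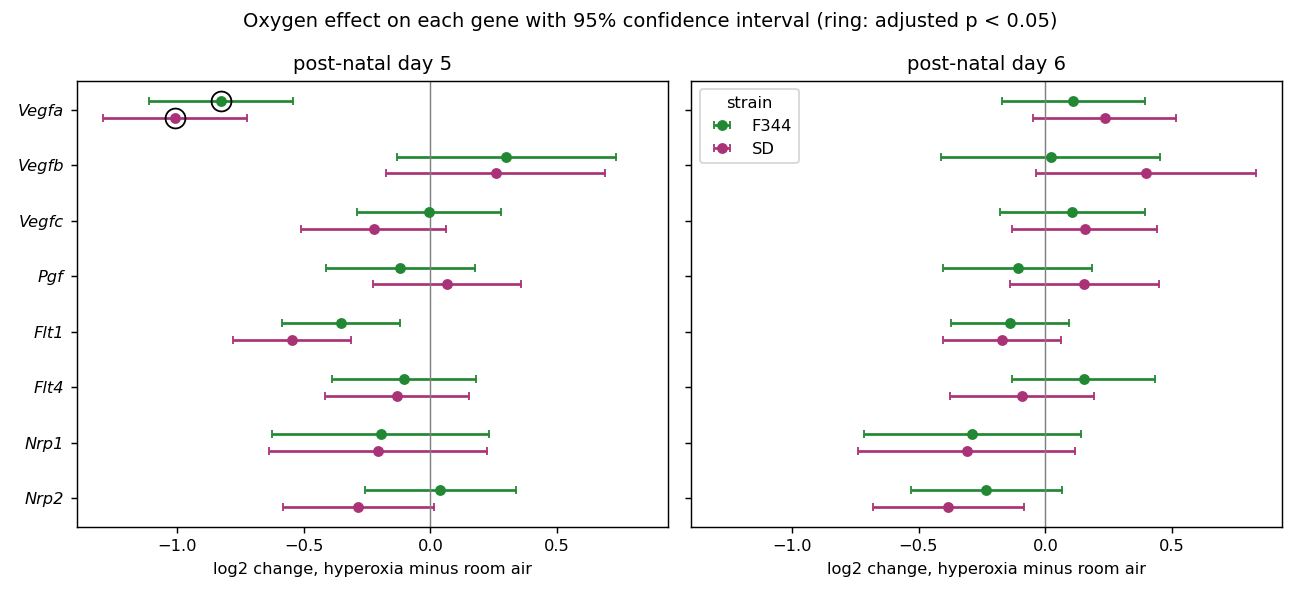
Log2 change, cyclic hyperoxia minus room air, for each measured VEGF gene in SD and F344 on day 5 (left) and day 6 (right), with 95% confidence intervals and a ring around called values. The rings are on Vegfa on day 5 alone, at -1.01 in SD and -0.83 in F344, and none is on day 6.

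The strains were then compared for the oxygen effect itself. No member was called for a difference between SD and F344 on either day. For Vegfa the SD minus F344 difference was -0.18 on day 5 (-0.58 to 0.22, adjusted p = 0.919 from limma) and 0.12 on day 6 (-0.28 to 0.52, adjusted p = 0.858 from limma). For Flt1 it was -0.19 on day 5 (-0.52 to 0.13, adjusted p = 0.887 from limma). These intervals leave room for differences of about the size of the Flt1 effect. Over all genes 0% were called on day 5 with limma, where 879 genes had an unadjusted p under 0.05, and 0.0559% on day 6. In room air the Vegfa strain difference was -0.11 (adjusted p = 0.531 from limma) and that of Flt1 was 0.10 (adjusted p = 0.51 from limma).

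Genes whose levels followed Vegfa over the 16 arrays were named by the highest Pearson r among 7162 genes above the median level, as a description. The 6 highest were Slc16a3, a lactate exporter, with r = 0.97, Pdk1, a kinase that restrains pyruvate dehydrogenase, with r = 0.96, and Pfkfb3, a glycolytic regulator, with r = 0.956. They were followed by the glycolytic enzymes Gpi with r = 0.932, Tpi1 with r = 0.924 and Pfkl with r = 0.903. The arrays share their groups, and r was lower for all 6 genes without the 4 hyperoxia arrays of day 5. Over the other 12 arrays it was 0.853 for Slc16a3, 0.674 for Pdk1, 0.696 for Pfkfb3, 0.507 for Gpi, 0.883 for Tpi1 and 0.857 for Pfkl.

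These genes were chosen for their likeness over arrays that include the day 5 hyperoxia arrays, so their day 5 values follow in part from the choice and support nothing. On day 5, where 0.209% of all genes were called, 5 of the 6 were called lower in the mean of the strains, from -0.55 for Pfkl to -1.50 for Slc16a3, and Tpi1 at -0.59 was not (adjusted p = 0.0832 from limma). On day 6, 6.74% of all genes were called in the mean of the strains. In that mean Slc16a3 was called higher by 0.58 (adjusted p = 0.0424 from limma), Pdk1 by 0.39 (adjusted p = 0.0128 from limma) and Pfkl by 0.38 (adjusted p = 0.034 from limma). Pfkfb3 at 0.27, Tpi1 at 0.31 and Gpi at -0.10 were not called (adjusted p = 0.107, 0.132 and 0.452 from limma). The Slc16a3 call was lost without replicate 1 of F344 hyperoxia (0.48, adjusted p = 0.0648 from limma) and the Pfkl call without replicate 2 (0.39, adjusted p = 0.0649 from limma). Vegfa on that day was at 0.17 (-0.03 to 0.37, adjusted p = 0.284 from limma).

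**Figure D4:**
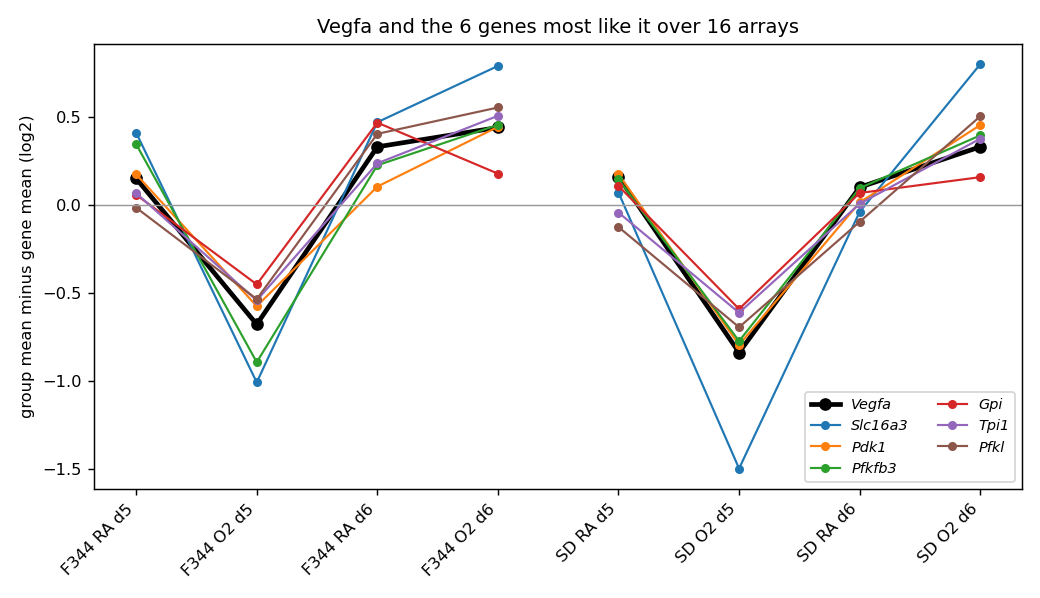
Group mean minus the gene's mean over all arrays (log2) for Vegfa in black and the 6 genes most like it in colour, over the 8 groups. All 7 lines are lowest under cyclic hyperoxia on day 5, where Slc16a3 changed by -1.50 and Vegfa by -0.92 in the mean of the strains.

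The genes most like the other members were of mixed function. For Flt1 they were Zmynd8 (r = 0.83), Cacna1e (r = 0.822) and Gpi (r = 0.798), the last of which was also among those most like Vegfa. Vegfa and Flt1 themselves correlated with r = 0.744 over 16 arrays and -0.232 over the 12 arrays without hyperoxia on day 5. For Nrp1 the values were 0.94 for Anapc1, 0.928 for Pfas and 0.927 for Isoc1. For Nrp2 they were 0.874 for Fry, 0.868 for Kif5a and 0.862 for Atrn, and for Vegfb 0.893 for Mospd3, 0.879 for Vasp and 0.868 for Nabp2. For the dim members no gene exceeded 0.783: Josd1, Ift43 and Dynlt3 were most like Pgf, Gnaz, Tcp11l2 and Prkcb most like Vegfc, and Fam3a, Heca and Peli2 most like Flt4.

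Other genes of the pathway were followed through 5 lists. Ligand processing and binding genes cut, store or trap the ligands, and 11 of 16 listed symbols were measured. On day 5, 0 of 11 were called, with a median change of -0.01, beside 0.01 over all genes. The smallest p belonged to Vegfd, a lymphatic ligand, at -0.18 (adjusted p = 0.444 from limma). On day 6 Adamts3, a protease that activates VEGF-C, fell by 0.35 in the mean of the strains (adjusted p = 0.0478 from limma), and it was not called without replicate 2 of F344 hyperoxia (-0.26, adjusted p = 0.159 from limma). In room air it was higher in SD than in F344 by 0.66 (adjusted p = 0.00102 from limma). It was 1 of 3 genes of this list called higher there, with 0 called lower, where 9.35% of all genes were called.

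Receptor partners, the plexins, semaphorins and junction proteins that work with VEGF receptors and neuropilins, had 11 of 17 measured. None was called on day 5, when Cdh5, the endothelial cadherin, was at -0.29 (adjusted p = 0.249 from limma) and Gipc1, an adaptor of the neuropilin tail, at 0.28 (adjusted p = 0.227 from limma). On day 6, 3 plexins fell in the mean of the strains: Plxna2 by 0.34, Plxna3 by 0.35 and Plxnd1 by 0.40 (adjusted p = 0.0291, 0.0414 and 0.0391 from limma). Without replicate 2 of F344 hyperoxia they were at -0.34, -0.27 and -0.42 and 0 of the 3 were called (adjusted p = 0.055, 0.133 and 0.0683 from limma). Plxnd1 was at -0.05 in SD (adjusted p = 0.903 from limma) and -0.74 in F344 (adjusted p = 0.033 from limma), Plxna3 at -0.20 and -0.50 and Plxna2 at -0.41 and -0.26 (adjusted p over 0.05 in each strain). Without replicate 2 of F344 hyperoxia the F344 change of Plxnd1 was -0.78 and was not called. The 3 calls in the mean of the strains are 3 of 11 genes, where 6.74% of all genes were called. The list median was -0.09, beside -0.01 over all genes. Between the strains in room air, 9.35% of all genes were called. Of the 11 partners, 1 was called higher in SD than in F344 and 4 were called lower. Among the lower was Sema3f, a ligand of Nrp2, with an SD minus F344 difference of -0.60 (adjusted p = 0.000688 from limma).

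Downstream signalling genes were measured for 26 of 33 and VEGF-induced genes for 15 of 15. On day 5, 0 of either list were called, with medians of -0.05 and -0.05, and Dll4, the Notch ligand that VEGF induces in tip cells, was at -0.20 (adjusted p = 0.478 from limma). On day 6, 2 of the 26 downstream genes were called in the mean of the strains, a share near the 6.74% of all genes. Fyn, a Src family kinase, fell by 0.48 (adjusted p = 0.0137 from limma) and Rac1, a GTPase of cell migration, by 0.45 (adjusted p = 0.0181 from limma). Without replicate 2 of F344 hyperoxia Fyn was still called (-0.37, adjusted p = 0.0419 from limma) and Rac1 was not (-0.33, adjusted p = 0.0515 from limma). Prkca, a protein kinase C, was called in SD (-0.81, adjusted p = 0.0235 from limma) and was at -0.02 in F344. Its mean over the strains was -0.41 (adjusted p = 0.055 from limma). That mean was -0.53 without replicate 1 of F344 hyperoxia and -0.29 without replicate 2. Of the 15 VEGF-induced genes, 0 were called on day 6 in the mean of the strains. In SD 1 was called, where 2.79% of all genes were called. This was Cxcr4, a chemokine receptor of tip cells, which rose by 0.82 in SD (adjusted p = 0.0141 from limma). It was at -0.15 in F344 (adjusted p = 0.65 from limma) and at 0.34 in the mean of the strains (adjusted p = 0.0637 from limma). The difference of that effect between strains did not pass (0.97, adjusted p = 0.0941 from limma). These SD calls of day 6 share the limit given with Vegfa, that the calls of that day were not stable when 1 array was left out.

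Of the 9 HIF and oxygen-sensing genes, all measured, 1 was called on day 5 in the mean of the strains, where 0.209% of all genes were called. This was Egln3, a HIF prolyl hydroxylase that is itself a HIF target. It was at 4.87 and 5.09 in SD and 4.75 and 4.74 in F344 under hyperoxia, against 6.28 and 6.07 in SD and 6.30 and 5.91 in F344 in room air. The groups did not overlap, and the change was -1.28 in the mean of the strains (adjusted p = 2.97e-05 from limma), beside -0.92 for Vegfa. On day 6, 6.74% of all genes were called in the mean of the strains. Egln3 rose in that mean by 0.56 (adjusted p = 0.00899 from limma). It was at 0.85 in SD (adjusted p = 0.0125 from limma) and 0.26 in F344 (adjusted p = 0.382 from limma). The SD call of Egln3 shares the limit given with Vegfa for calls of that day. Hif1a, the oxygen-regulated HIF subunit, fell by 0.41 in the mean of the strains (adjusted p = 0.0181 from limma). Without replicate 2 of F344 hyperoxia Egln3 was still called (0.58, adjusted p = 0.0212 from limma) and Hif1a was not (-0.32, adjusted p = 0.0576 from limma).

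**Figure D5:**
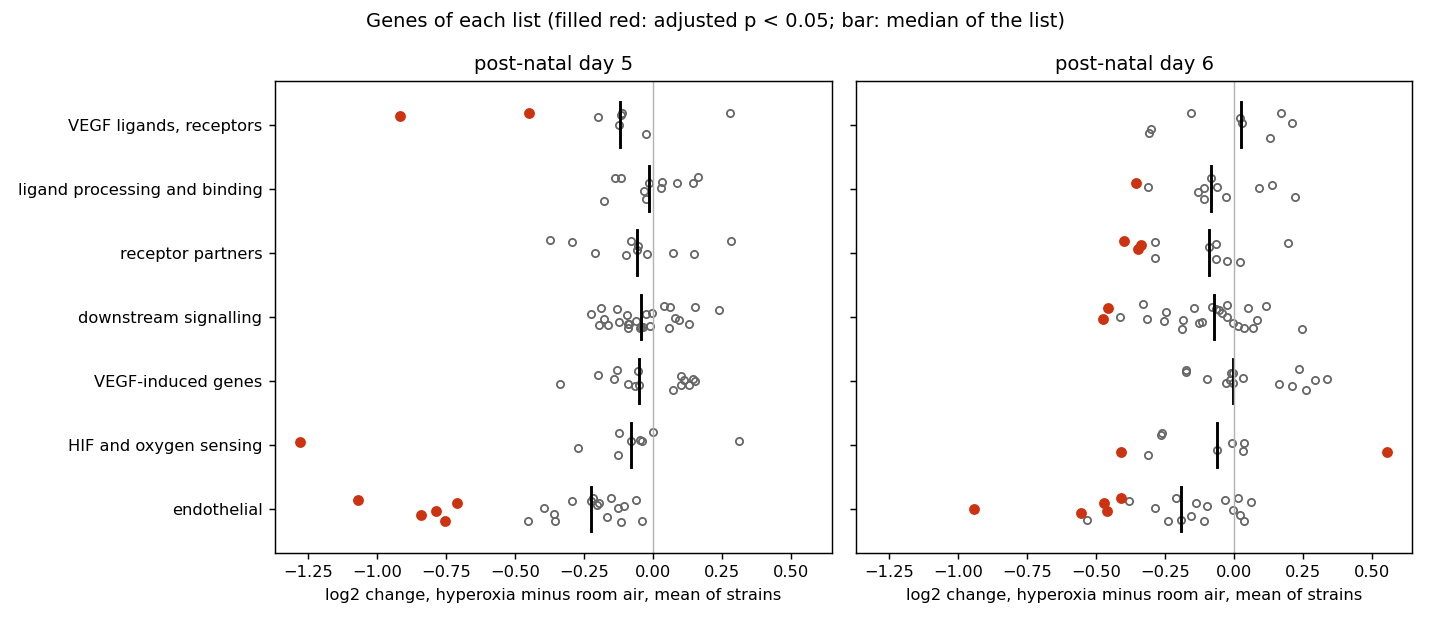
Log2 change, hyperoxia minus room air in the mean of the strains, for each measured gene of the VEGF family and of the lists, on day 5 (left) and day 6 (right), with called genes filled red and a bar at each list's median. On day 5 the called genes of the family are Vegfa at -0.92 and Flt1 at -0.45, and Egln3 at -1.28 is the called HIF gene.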

How the data were processed

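Per the submitters' processing notes, the authors made the deposited log2 values of 27342 probe sets with Partek 6.4 and RMA, which quantile-normalizes arrays, so a change common to most transcripts would be removed. The genome build was not given in the sources used here. Probe sets with 1 annotated symbol (15097) were kept, updated through the RefSeq gene table of GRCr8 (15067 matched), and the brightest set was taken for the 499 genes with several. That left 14324 genes.

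limma 3.58.1 fitted a mean for each group in R 4.3.3, over all 16 arrays (8 residual and 7.41 prior degrees of freedom). 15 contrasts were made, with Benjamini-Hochberg adjustment over all genes of each. Errors after group values are SDs. The script was tested on simulated data.

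Named genes were all members, the genes with the highest r (6 for Vegfa, 3 for each other member), and from each list the called genes and the 2 with the smallest p, of which some are described. Further genes named by strain contrasts are examples. The members, lists and comparisons were chosen with earlier results of these data known. Alternatives were a replicate block, leaving out each array, arrays of 1 day, a filter on low values, other probe set rules, trend and robust fitting, array weights and 2 further normalizations.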

Additional observations from a re-analysis of the deposited data

Results flagged for a closer look

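The Vegfa oxygen effect differed between day 5 and day 6 by a test of that difference with limma. The day 6 minus day 5 difference was 1.241 in SD (adjusted p = 0.01158 from limma), 0.9357 in F344 (adjusted p = 0.03504 from limma) and 1.088 over both strains (adjusted p = 0.0008426 from limma). Levels under hyperoxia were lower on day 5 on 4 of 4 arrays than on any day 6 array. Age and phase of the oxygen cycle cannot be told apart in this difference.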

How the results depend on the processing

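Of 120 member values (8 genes in 15 comparisons), the 9 called ones reversed in none of the 24 or 25 other settings run for each, while 46 of the 111 uncalled ones changed sign in some setting. Leaving out 1 array at a time, where a lone array is taken to vary like the others, gave 0 to 1 members called for day 5 in SD, 0 to 1 in F344 and 1 to 2 in the mean of the strains. It gave 0 to 2 on day 6 in the mean of the strains, 0 to 1 for the difference between days in SD and in F344, 0 to 1 for the strain difference in room air and under hyperoxia, and 1 to 2 for day 6 minus day 5 under hyperoxia.

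Of the other settings, a fit on arrays of the same day alone gave 0 members for F344 on day 5. The difference between days in F344 gave 0 members with every probe set tested on its own and 0 with array weights. Day 6 minus day 5 under hyperoxia gave 1 with trend and robust fitting. Array weights gave 2 for SD on day 5, with Flt1 added (adjusted p = 0.0229 from limma), and 1, Nrp1, for the strain difference in room air. The cause was not tested. A filter on low values left out 4 members.

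With the replicate number as a block, members called stayed at 1 in SD, 1 in F344 and 2 in the mean of the strains on day 5, and no member's call changed. The block lowered the count of all genes for the difference between days in F344 from 146 to 87. Deviations of same-numbered arrays correlated between -0.287 and 0.519, with 8 of 28 group pairs over 0.1, so the numbers were not taken as pairs. Counts of all genes called moved more. On day 5 they were 9 in SD (7 to 28 over the 9 settings that did not leave out 1 array), 18 in F344 (8 to 21) and 30 in the mean of the strains (19 to 58). On day 6 they were 400 (81 to 800), 170 (0 to 199) and 966 (396 to 1411). With 1 array left out they were 0 to 15, 4 to 19 and 14 to 54 on day 5, and 0 to 994, 0 to 1621 and 53 to 2829 on day 6.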
